A study of Homo sapiens with 8 samples.

Results

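The 10 genes described here are textbook hypoxia and glycolysis genes, namely ADM, VEGFA, SLC2A1, HK2, LDHA, PGK1, BNIP3, PFKFB3, PFKFB4 and EGLN3. They were taken by gene symbol and not by any measured value, and they are 10 of the 58219 genes listed for each library. All 10 passed the filter on low counts and are among the 13129 protein-coding genes that were tested. RNA was sequenced from H929 and KMS11, established multiple myeloma (MM) cell lines that both carry the t(4;14) translocation, cultured for 24 h with fluvastatin at 2 µM or with its solvent, ethanol. Fluvastatin inhibits HMG-CoA reductase, the rate-limiting enzyme of the mevalonate pathway that makes sterols and isoprenoids. Each line and treatment had 2 biological replicates per the study's methods, which gave 4 groups and 8 libraries (H929 in ethanol, H929 in fluvastatin, KMS11 in ethanol and KMS11 in fluvastatin). Each line is a single established line grown in RPMI 1640 with serum, and the labels name no low-oxygen treatment, so that the comparisons below are of a statin against its solvent and not of oxygen levels.

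In the presence of oxygen, prolyl hydroxylases of the EGLN family mark the alpha subunits of hypoxia-inducible factor (HIF) for destruction through the VHL ubiquitin ligase. When oxygen falls, the alpha subunit is kept, pairs with ARNT and binds hypoxia response elements, whose core is A or G followed by CGTG. The known targets raise glucose uptake and glycolysis, divert pyruvate to lactate, clear mitochondria and send signals to blood vessels, and many of them also respond to MYC and to nutrient signals when oxygen is plentiful. Myeloma cells live in the bone marrow, where oxygen is low. In bulk RNA, fewer cells that use a gene and less RNA per cell cannot be told apart.

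Promoters of 9 of the 10 genes were found in RefSeq's table for GRCh38.p14, and no promoter of VEGFA is shown. In the 250 bases before each start, 10 of the 12 promoters of these 9 genes held ACGTG or GCGTG on either strand, against 43.2% of all 35116 promoters in the table. ACGTG alone was in 18.5% of all promoters and GCGTG alone in 32.2%. The EGLN3 and SLC2A1 windows held neither. The promoters of 4 genes are printed 5′ to 3′ because they cover the range of responses described below: ADM was lower with fluvastatin in both lines, PFKFB4 was higher in KMS11, PGK1 was lower in H929, and LDHA had no change that passed the test. Capitals mark each match to ACGTG or GCGTG or to their reverse complements CACGT and CACGC, and in CACGTG the matches of both strands overlap. A match is a description of the letters and not a binding site.
ADM, chr11:10304823-10305072, + strand: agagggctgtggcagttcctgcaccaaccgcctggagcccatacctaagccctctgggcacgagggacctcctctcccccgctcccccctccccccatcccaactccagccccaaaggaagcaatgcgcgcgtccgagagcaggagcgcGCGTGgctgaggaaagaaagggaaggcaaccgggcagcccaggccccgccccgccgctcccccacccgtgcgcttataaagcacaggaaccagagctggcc
PFKFB4, chr3:48556804-48557053, - strand: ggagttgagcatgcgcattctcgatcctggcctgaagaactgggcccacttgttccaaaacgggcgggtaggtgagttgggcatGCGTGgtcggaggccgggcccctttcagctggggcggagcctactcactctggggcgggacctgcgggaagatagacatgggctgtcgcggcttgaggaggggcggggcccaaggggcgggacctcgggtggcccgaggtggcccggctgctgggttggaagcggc
PGK1, chrX:78103998-78104247, + strand: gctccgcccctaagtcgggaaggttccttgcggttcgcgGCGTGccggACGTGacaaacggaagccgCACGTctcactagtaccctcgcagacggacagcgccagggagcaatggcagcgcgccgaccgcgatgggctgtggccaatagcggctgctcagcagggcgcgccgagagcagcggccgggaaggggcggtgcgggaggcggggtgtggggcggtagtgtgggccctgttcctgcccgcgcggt
LDHA, chr11:18394313-18394562, + strand: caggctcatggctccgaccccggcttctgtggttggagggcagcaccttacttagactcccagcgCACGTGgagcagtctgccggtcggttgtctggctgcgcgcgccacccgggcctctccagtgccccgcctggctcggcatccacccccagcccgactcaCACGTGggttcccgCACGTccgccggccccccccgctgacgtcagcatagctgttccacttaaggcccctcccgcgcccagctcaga
ADM and PFKFB4 each had 1 match in these windows, to GCGTG. PGK1 had 3, to ACGTG in 2 and to GCGTG in 1. The first LDHA promoter had 5, all to ACGTG, and the second promoter of LDHA had 1. BNIP3 had 6.

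Library totals ran from 26702515 to 41910446 expected counts. RSEM gives a gene its own fragments plus an estimated part of those it shares with other genes. The expected counts were scaled to TMM-normalized CPM, the counts relative to the size of the library, and levels of different genes are compared only as TPM, a relative transcript abundance that RSEM scales by length. The 2 KMS11 fluvastatin libraries differed from each other more than the replicates of any other group. Their chi-square statistic over genes was 37.8 for each degree of freedom, against 9.97 to 18.1. The number of calls in KMS11 moved with the libraries used, and was 409 of all tested genes with all 8 libraries. It was lower without either KMS11 ethanol library or KMS11 fluvastatin replicate 1, and higher without KMS11 fluvastatin replicate 2. Such a fit leaves 1 replicate in a group, and cannot tell reliance on that library from the loss of a replicate. All 10 plasma cell and t(4;14) markers were at 1 CPM or more in H929 (summed 7930 to 9321 CPM), and 9 of 10 in KMS11 (3359 to 3907 CPM), where CD38 was at 0.104 to 0.301 CPM. Of 12 markers of other cell types, 2 were at 1 CPM or more in every library. These were CD3E and PECAM1 in H929, with a summed level of the 12 markers of 29.6 to 31.0 CPM in ethanol and 35.2 to 38.8 CPM in fluvastatin, and EPCAM and PECAM1 in KMS11, with 69.3 to 70.6 CPM in ethanol and 66.8 to 75.4 CPM in fluvastatin. CD14, CSF1R and COL1A2 were at 0 in all 8 libraries. CD3E rose in H929 (log2 fold change 1.13, edgeR adjusted p = 0.00309), and the line's own markers moved too. In H929, SDC1 (-1.08, edgeR adjusted p = 8.62e-04), SLAMF7 (-0.98, 2.99e-04), MZB1 (-1.02, 0.00864) and XBP1 (-0.34, 0.00834) were lower and PRDM1 (0.32, 0.0152) and NSD2 (0.42, 0.00678) higher. XBP1 was also lower in KMS11 (-0.40, edgeR adjusted p = 0.0349) and across both lines (-0.37, 0.0153). The part of these markers in the results was not tested.

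ADM fell in both lines, PFKFB4 rose in KMS11, and most of the other genes moved little. Within H929, 4 of the 10 genes passed the test, all lower with fluvastatin: ADM, SLC2A1, PGK1 and PFKFB3. Within KMS11, ADM and HK2 were lower and PFKFB4 was higher. Across both lines with the line as a term, only ADM of the 10 passed. The tests are edgeR's quasi-likelihood tests, with p-values adjusted by Benjamini-Hochberg over all 13129 genes and a threshold of 0.05 on the adjusted p. Among all genes tested, 42.0% passed within H929 (22.7% higher and 19.3% lower), 3.12% within KMS11 (2.58% higher and 0.533% lower) and 10.4% across both lines (6.5% higher and 3.93% lower). The share of the 10 genes that passed was thus near the background in H929 and across both lines, and in KMS11 it was 3 of 10. The median log2 fold change of the 10 genes was -0.27 in H929, -0.14 in KMS11 and -0.21 across both lines, beside 0.02, 0.00 and 0.03 over all tested genes. The sign was negative for 8 of the 10 genes in each of these comparisons, and the comparisons share libraries. The response of KMS11 minus that of H929 passed the test for ADM and PFKFB4, where 23.2% of all tested genes passed (11.7% higher and 11.5% lower). With a per-library trend on GC content removed, 1590 of all 13129 tested genes passed in KMS11, beside 409 in the main fit. The count of 3 in KMS11 was 0 without KMS11 ethanol replicate 1 or 2 and 1 without H929 ethanol replicate 1 or KMS11 fluvastatin replicate 1, and 5 with a per-library trend on GC content removed. The count of 1 across both lines was 0 without H929 ethanol replicate 2 or H929 fluvastatin replicate 1, 3 without KMS11 fluvastatin replicate 1 and 2 without KMS11 fluvastatin replicate 2. The count of 2 for the difference was 1 without H929 ethanol replicate 1, H929 fluvastatin replicate 2 or KMS11 ethanol replicate 1. It was 3 when KMS11 fluvastatin replicate 2 was left out.

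**Figure D1:**
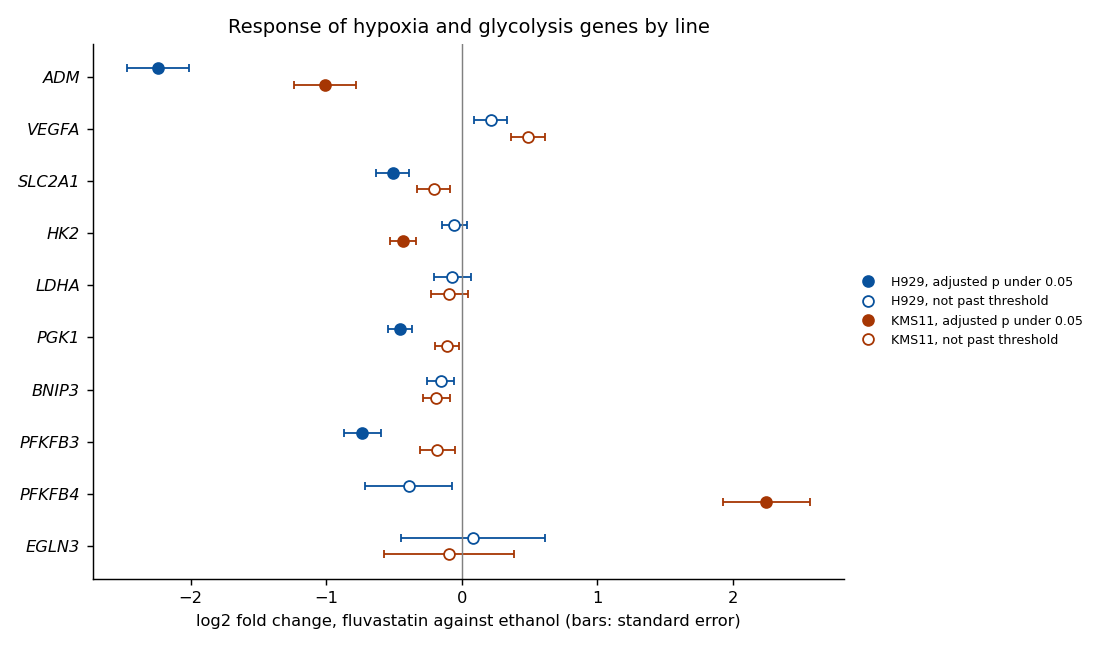
Log2 fold change with fluvastatin (horizontal axis) of the 10 genes in H929 (blue) and KMS11 (brown), with bars for the standard error and filled points for an adjusted p under 0.05. ADM lies left of 0 in both lines, at -2.24 and -1.01, and PFKFB4 lies at 2.25 in KMS11 and at -0.39 in H929.

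Adrenomedullin, encoded by ADM (ENSG00000148926.9, chromosome 11, 10305073 to 10307397, plus strand, GRCh38), is a secreted vasodilator peptide and a classical hypoxia-induced gene. In H929 it was at 15.2 and 11.9 CPM in ethanol and at 3.38 and 2.38 CPM in fluvastatin. In KMS11 it was at 4.78 and 5.50 CPM in ethanol and at 2.71 and 2.40 CPM in fluvastatin. The groups did not overlap in either line, and the treated libraries of both lines lay close together while the ethanol libraries of H929 stood highest. The level fell 4.73-fold in H929 (log2 fold change -2.24, SE 0.23, edgeR adjusted p = 6.48e-05) and 2.02-fold in KMS11 (-1.01, SE 0.23, edgeR adjusted p = 0.0451). The fall was larger in H929, with a difference of 1.23 (SE 0.32, edgeR adjusted p = 0.0221), and across both lines it was -1.63 (SE 0.27, edgeR adjusted p = 0.0132). ADM rested on 59 to 448 counts in a library. The call in KMS11 was lost without H929 ethanol replicate 1 (adjusted p = 0.0526), KMS11 ethanol replicate 1 (0.163), KMS11 ethanol replicate 2 (0.276) or KMS11 fluvastatin replicate 1 (0.0671), the call across both lines without H929 ethanol replicate 2 (0.0531) or H929 fluvastatin replicate 1 (0.067), and the difference without H929 ethanol replicate 1 (0.0832), H929 fluvastatin replicate 2 (0.0854) or KMS11 ethanol replicate 1 (0.0825), all by edgeR. In H929 the fall passed whichever library was left out.

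VEGFA (ENSG00000112715.21, chromosome 6, 43770184 to 43786487, plus strand) encodes the main growth factor for blood vessels and is the other secreted product among the 10 genes. It was at 60.3 and 49.5 CPM in ethanol and 66.7 and 60.7 CPM in fluvastatin in H929, where the groups lay next to each other. The KMS11 libraries were at 17.8 and 19.8 CPM in ethanol and 25.8 and 26.7 CPM in fluvastatin, without overlap. The log2 fold changes of 0.21 in H929 (SE 0.12, edgeR adjusted p = 0.191) and 0.49 in KMS11 (SE 0.13, edgeR adjusted p = 0.0739) did not pass the test. VEGFA did pass in KMS11 with DESeq2 (0.45, DESeq2 adjusted p = 0.0396) and with no filter on low counts (0.48, edgeR adjusted p = 0.0306), and in H929 with the GC trend removed (0.29, edgeR adjusted p = 0.0221). VEGFA and ADM had fold changes of opposite sign in both lines.

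Of 15 genes of adrenomedullin and VEGF signalling, 7 were tested. In H929, 2 were higher and 2 lower, beside 22.7% and 19.3% of all tested genes. ADM alone was lower in KMS11, beside 0.533%. ADM2, which encodes the related peptide intermedin, went from 13.0 and 7.002 to 40.9 and 27.6 CPM in H929 and from 1.10 and 0.903 to 3.58 and 2.58 CPM in KMS11. No treated library of ADM2 overlapped the ethanol libraries of its line. It rose by a log2 fold change of 1.77 in H929 (SE 0.29, edgeR adjusted p = 9.64e-04) and of 1.71 across both lines (SE 0.24, edgeR adjusted p = 0.00667), and had 1.60 in KMS11 (SE 0.37, edgeR adjusted p = 0.0516). CALCRL, the receptor that adrenomedullin peptides share, rose in H929 from 0.477 and 0.280 to 2.02 and 2.30 CPM (log2 fold change 2.48, SE 0.40, edgeR adjusted p = 8.25e-04), and was at 0.433 to 0.757 CPM in KMS11. VEGFB, a relative of VEGFA, fell in H929 (-0.70, SE 0.19, edgeR adjusted p = 0.0142), a call lost without H929 ethanol replicate 1 or H929 fluvastatin replicate 2 (highest adjusted p = 0.11). The partners RAMP1 and RAMP3, which CALCRL needs at the cell surface, had at most 1 count in a library, and the VEGF receptors FLT1, KDR and FLT4 had at most 5. RAMP2 had 0 or 1 count in H929 libraries and 5 to 22 in KMS11 libraries.

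**Figure D2:**
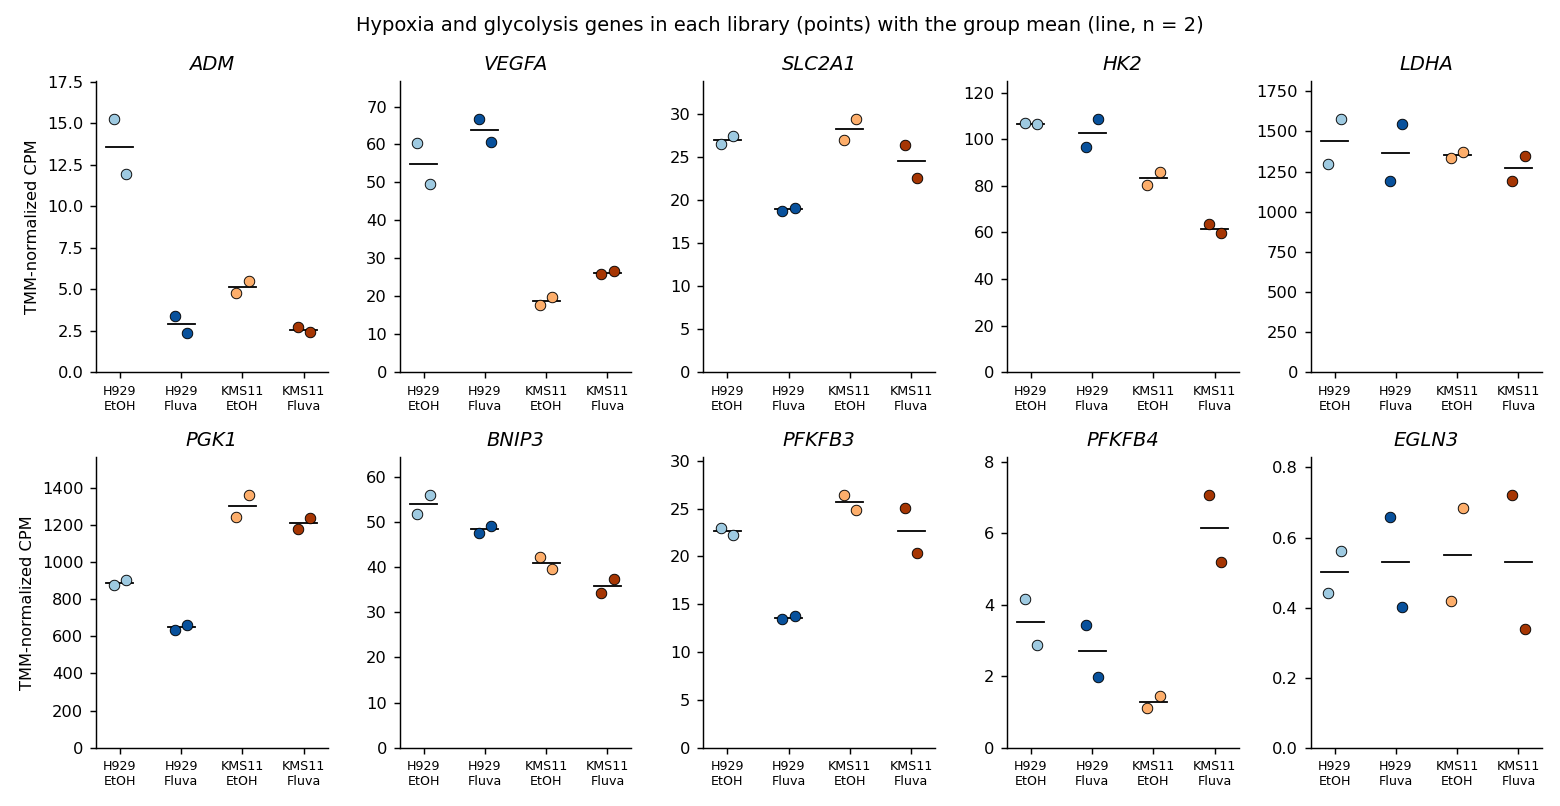
TMM-normalized CPM (vertical axis, from 0) of the 10 genes in each library, with 1 panel for each gene and a line for the mean of the 2 replicates of a group. ADM in fluvastatin is at 2.38 to 3.38 CPM in both lines, and PFKFB4 is highest in the fluvastatin libraries of KMS11, at 7.08 and 5.19 CPM.

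GLUT1, a widely used glucose transporter, is the product of SLC2A1 (ENSG00000117394.20, chromosome 1, 42925353 to 42958893, minus strand), and hexokinase 2, the product of HK2 (ENSG00000159399.9, chromosome 2, 74834127 to 74893359, plus strand), traps glucose by phosphorylation. SLC2A1 was at 26.5 and 27.4 CPM in ethanol and 18.8 and 19.1 CPM in fluvastatin in H929, and at 27.04 and 29.5 CPM against 26.4 and 22.6 CPM in KMS11. The H929 groups stood well apart, and the KMS11 groups nearly touched. SLC2A1 fell 1.42-fold in H929 (log2 fold change -0.51, SE 0.12, edgeR adjusted p = 0.00871), a call lost without H929 ethanol replicate 2 (adjusted p = 0.0505), and had -0.21 in KMS11 (SE 0.12, edgeR adjusted p = 0.345). The difference between the lines was 0.31 (SE 0.17, edgeR adjusted p = 0.23). With a per-library trend on GC content removed, SLC2A1 was also called in KMS11, at -0.46 (edgeR adjusted p = 0.0188).

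HK2 was called in KMS11 and not in H929. It was at 107 and 106 CPM in ethanol and 96.9 and 109 CPM in fluvastatin in H929, where the groups overlapped, and at 80.3 and 86.1 CPM against 63.5 and 59.8 CPM in KMS11, where they did not. HK2 fell 1.35-fold in KMS11 (log2 fold change -0.43, SE 0.09, edgeR adjusted p = 0.0413) and had -0.06 in H929 (SE 0.09, edgeR adjusted p = 0.673). The difference of -0.38 between the lines did not pass (SE 0.13, edgeR adjusted p = 0.0664). It passed with DESeq2 (-0.43, DESeq2 adjusted p = 0.047) and with the GC trend removed (-0.43, edgeR adjusted p = 0.00714). The KMS11 call was lost without H929 ethanol replicate 1 (adjusted p = 0.063) or 2 (0.0622), KMS11 ethanol replicate 1 (0.208) or 2 (0.309), or KMS11 fluvastatin replicate 1 (0.0645).

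Among 9 transporters of glucose and lactate, 3 were lower and 2 higher in H929, beside 19.3% and 22.7% of all tested genes, and 1 was higher in KMS11, beside 2.58%. SLC2A5, a fructose transporter, fell in H929 from 12.2 and 9.32 to 3.87 and 3.10 CPM (log2 fold change -1.63, SE 0.34, edgeR adjusted p = 0.00346). The insulin-responsive transporter SLC2A4 was below 1 CPM in every library, and its call in H929 (-1.98, SE 0.63, edgeR adjusted p = 0.029) was lost without H929 ethanol replicate 1 or 2 or H929 fluvastatin replicate 1 (highest adjusted p = 0.189). SLC16A3, the lactate exporter MCT4, rose in H929 from 2.995 and 1.68 to 4.66 and 4.35 CPM (0.93, SE 0.33, edgeR adjusted p = 0.0467), and this call was lost without H929 ethanol replicate 2, either H929 fluvastatin library or either KMS11 ethanol library (highest adjusted p = 0.244). SLC2A8, an intracellular sugar transporter, rose in KMS11 from 14.2 and 12.9 to 30.3 and 20.7 CPM (0.91, SE 0.18, edgeR adjusted p = 0.0278), with 0.44 after removal of the GC trend, and lost its call without either KMS11 ethanol library or KMS11 fluvastatin replicate 1 (highest adjusted p = 0.266). Without H929 ethanol replicate 2 the lower count in H929 was 1 and the higher count 0. The neuronal type transporter SLC2A3 was at 0 counts in both H929 ethanol libraries, at 0.0439 and 0.0806 CPM in H929 fluvastatin libraries and at 18.3 to 22.5 CPM in KMS11.

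PGK1 (ENSG00000102144.13, chromosome X, 77910739 to 78129295, plus strand) encodes phosphoglycerate kinase, which makes the first ATP of glycolysis, and LDHA (ENSG00000134333.13, chromosome 11, 18394560 to 18408425, plus strand) encodes the lactate dehydrogenase subunit that favours lactate. PGK1 was at 873 and 905 CPM in ethanol and at 634 and 662 CPM in fluvastatin in H929. In KMS11 it was at 1240 and 1362 CPM against 1178 and 1236 CPM. PGK1 fell 1.37-fold in H929 (log2 fold change -0.46, SE 0.09, edgeR adjusted p = 0.0024) and had -0.11 in KMS11 (SE 0.09, edgeR adjusted p = 0.489), with a difference of 0.35 (SE 0.12, edgeR adjusted p = 0.0681). The PGK1 difference passed with the GC trend removed (0.53, edgeR adjusted p = 0.00138). On log2(TPM + 1) with limma the H929 fall did not pass the test. LDHA was at 1298 and 1578 against 1191 and 1547 CPM in H929 and at 1335 and 1373 against 1192 and 1349 CPM in KMS11. The LDHA groups overlapped in both lines, with log2 fold changes of -0.07 (SE 0.14, edgeR adjusted p = 0.718) and -0.09 (SE 0.14, edgeR adjusted p = 0.726). PGK1 shares its annotated span with ATP7A on the same strand, and LDHA has 6 annotated pseudogenes whose counts came to 0.587 to 1.27% of its own.

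The wider set of glycolytic enzymes fell together in H929 and not in KMS11. Of 19 enzymes, HK3 was not tested, and of the 18 others 11 fell and 1 rose within H929, where 19.3% of all genes tested were lower. Within KMS11, HK2 alone fell and ALDOC alone rose, where 0.533% of all tested genes were lower and 2.58% higher. With the GC trend removed 4 fell and 2 rose there, beside 734 lower and 856 higher among all 13129 tested genes. The counts in KMS11 also moved when KMS11 fluvastatin replicate 2 was left out. Over the 18 enzymes the log2 fold changes had a median of -0.64 in H929 and 0.06 in KMS11. The difference between the lines passed the test for 11 of them, all of them in the direction of a lower response in H929, where 11.7% of all tested genes passed in that direction. The 11 that fell in H929 were GPI, PFKM, PFKP, ALDOA, TPI1, GAPDH, PGK1, PGAM1, ENO1, PKM and LDHB. They include an enzyme for each step from glucose 6-phosphate to pyruvate. The count of 11 was the same whichever library was left out, and the difference was called for 8 to 12 enzymes. Across both lines PFKM (-0.66, SE 0.13, edgeR adjusted p = 0.0207) and LDHB (-0.56, SE 0.10, edgeR adjusted p = 0.0171) fell. The PFKM call was lost without any 1 H929 library (highest adjusted p = 0.0831), and the LDHB call without H929 ethanol replicate 1 or 2 or H929 fluvastatin replicate 1 (highest adjusted p = 0.0631).

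ALDOA, the main aldolase, went from 917 and 842 to 442 and 367 CPM in H929 (log2 fold change -1.12, SE 0.18, edgeR adjusted p = 9.03e-04), while in KMS11 it was at 496 and 515 against 797 and 507 CPM. GPI, which isomerizes glucose 6-phosphate, went from 310 and 296 to 152 and 137 CPM in H929 (-1.07, SE 0.13, edgeR adjusted p = 1.86e-04). PGAM1, a phosphoglycerate mutase, went from 705 and 758 to 345 and 361 CPM there (-1.05, SE 0.10, edgeR adjusted p = 3.83e-05). In all 3 enzymes the H929 groups were far apart, and in KMS11 their treated libraries lay on or around the ethanol libraries apart from the first fluvastatin replicate of ALDOA and GPI, which was highest. ALDOC, a minor aldolase, rose in KMS11 from 12.6 and 13.0 to 29.2 and 21.4 CPM (0.98, SE 0.20, edgeR adjusted p = 0.0289), and the call was lost without either KMS11 ethanol library or KMS11 fluvastatin replicate 1 (highest adjusted p = 0.244). HK1, the housekeeping hexokinase, was the 1 enzyme that rose in H929 (0.44, SE 0.15, edgeR adjusted p = 0.0355), and lost its call without either H929 ethanol library, H929 fluvastatin replicate 1 or either KMS11 ethanol library (highest adjusted p = 0.232).

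**Figure D3:**
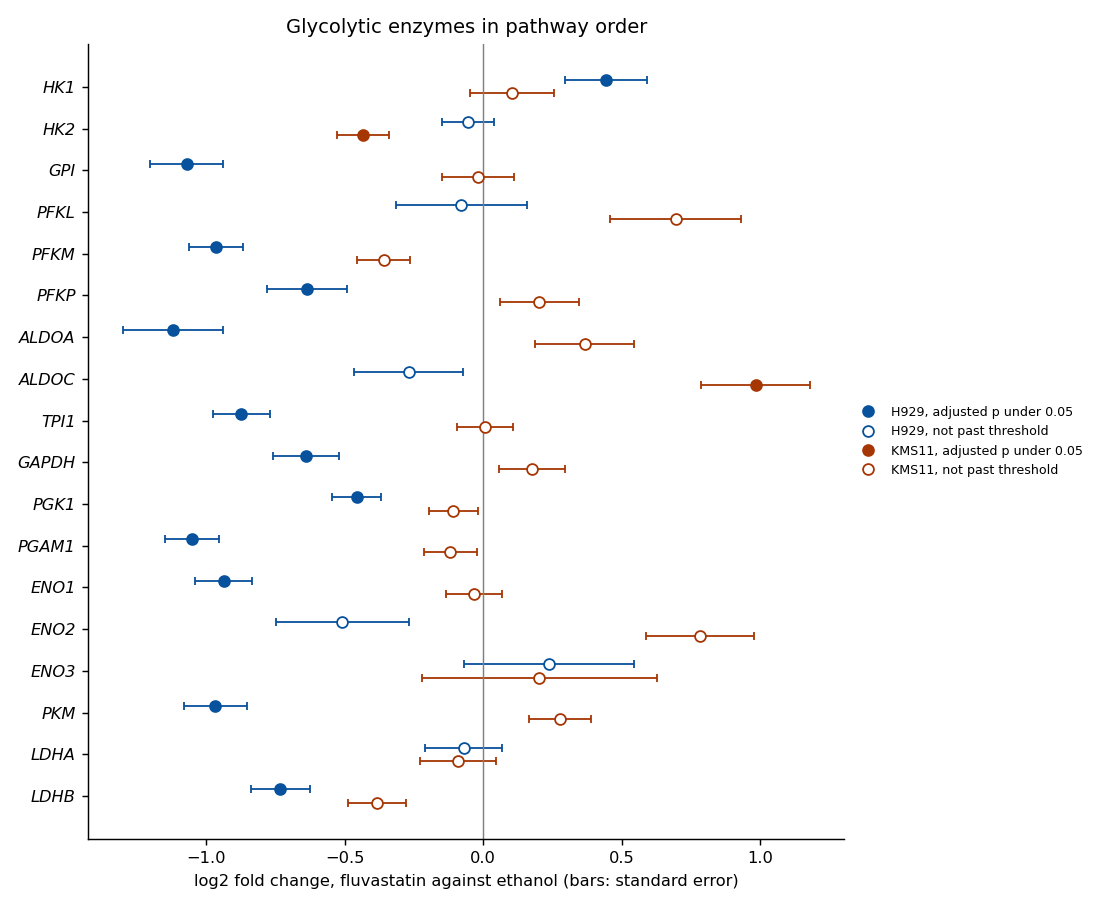
Log2 fold change with fluvastatin (horizontal axis) of 18 glycolytic enzymes from hexokinase at the top to lactate dehydrogenase at the bottom, in H929 (blue) and KMS11 (brown), with bars for the standard error and filled points for an adjusted p under 0.05. In H929, 11 enzymes fell, while KMS11 points lie on both sides of 0 with a median of 0.06.

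The share of LDHA, HK2 and SLC2A1 within a pair of isoenzymes or transporters is given next. These shares are of summed TPM, are a description and were not tested. LDHA made up 67.5 and 69.0% of LDHA and LDHB in H929 ethanol libraries and 75.0 and 76.7% in fluvastatin libraries, and 42.6 and 43.2% against 47.9 and 48.9% in KMS11. Higher LDHA shares stood in the treated libraries of both lines, and LDHB was the partner whose level fell in H929 (log2 fold change -0.73, SE 0.11, edgeR adjusted p = 4.69e-04). HK2 made up 76.4 and 79.6% of HK1 and HK2 in H929 ethanol libraries and 71.4 and 70.1% in fluvastatin libraries, against 79.7 and 82.5% and then 77.0 and 77.6% in KMS11. The share of SLC2A1 in SLC2A1 and SLC2A3 was 98.7 to 100% in H929 and 58.4 to 68.5% in KMS11.

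**Figure D4:**
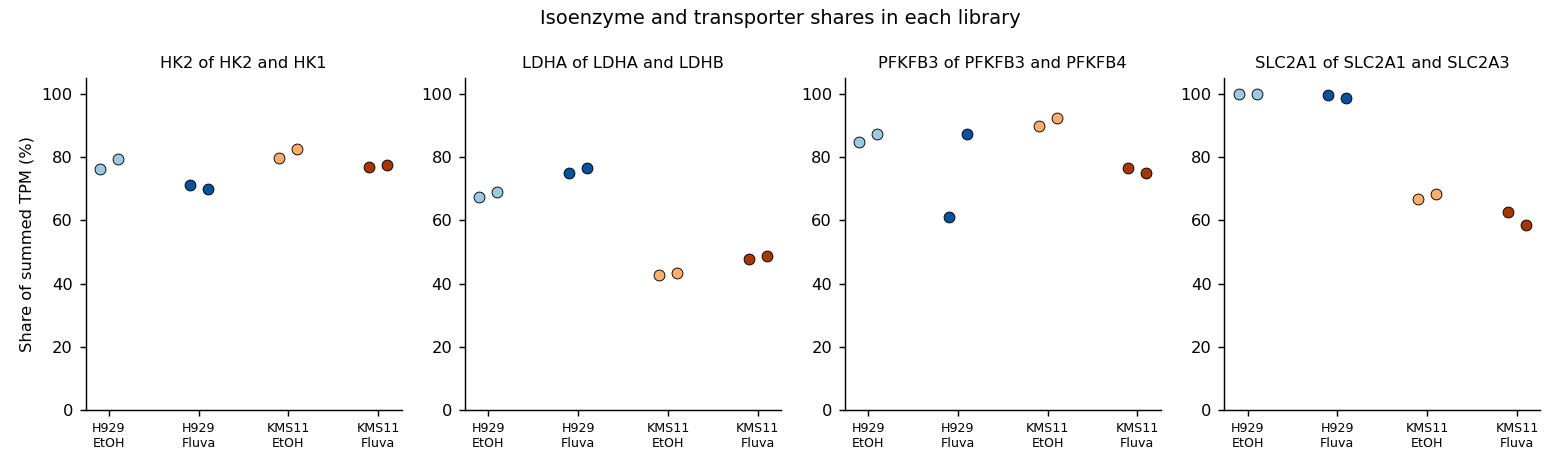
Share of summed TPM (vertical axis, percent, from 0) of the first gene of each pair in each library, by group. The LDHA share is 67.5 to 76.7% in H929 and 42.6 to 48.9% in KMS11, and within each line it is higher in both fluvastatin libraries.

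PFKFB3 and PFKFB4 encode enzymes that make and break fructose 2,6-bisphosphate, the strongest activator of phosphofructokinase, and both are known HIF targets. PFKFB3 (ENSG00000170525.19, chromosome 10, 6144934 to 6254644, plus strand) was at 22.9 and 22.3 CPM in ethanol and at 13.4 and 13.7 CPM in fluvastatin in H929. In KMS11 it was at 26.5 and 24.9 against 25.0 and 20.4 CPM, and there the groups overlapped. It fell 1.66-fold in H929 (log2 fold change -0.73, SE 0.14, edgeR adjusted p = 0.00195) and had -0.18 in KMS11 (SE 0.13, edgeR adjusted p = 0.44), with a difference of 0.56 that did not pass (SE 0.19, edgeR adjusted p = 0.0591). Without KMS11 fluvastatin replicate 2 the difference passed (0.69, adjusted p = 0.0121). With the GC trend removed PFKFB3 was also called in KMS11, at -0.49 (edgeR adjusted p = 0.0148).

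PFKFB4 (ENSG00000114268.11, chromosome 3, 48517684 to 48562015, minus strand) moved the other way in KMS11, from 1.12 and 1.45 CPM in ethanol to 7.08 and 5.19 CPM in fluvastatin. In H929 it was at 4.15 and 2.88 against 3.43 and 1.97 CPM. The KMS11 groups were far apart, the H929 groups overlapped, and the treated KMS11 libraries stood above every H929 library. PFKFB4 rose 4.75-fold in KMS11 (log2 fold change 2.25, SE 0.32, edgeR adjusted p = 0.0055) and had -0.39 in H929 (SE 0.32, edgeR adjusted p = 0.356), a difference of 2.64 (SE 0.45, edgeR adjusted p = 0.00362). PFKFB4 is a low gene, with 43 and 53 counts in KMS11 ethanol libraries, 196 and 199 in KMS11 fluvastatin libraries and 49 to 122 in H929 libraries. The KMS11 call was lost without KMS11 ethanol replicate 1 (2.04, adjusted p = 0.0923) or 2 (2.41, adjusted p = 0.0526). With limma on log2(TPM + 1) the fold change within KMS11 was 0.66 on the log2 scale and did not pass (limma adjusted p = 0.0962), nor did the difference between the lines, at 0.60 (limma adjusted p = 0.132). The KMS11 levels went from 0.540 and 0.340 to 1.35 and 1.19 TPM, and the effective length that RSEM gave the gene ran from 1453 to 3036 bases over libraries. PFKFB3 made up 90.1 and 92.6% of the summed TPM of this pair in KMS11 ethanol libraries and 76.6 and 75.0% in fluvastatin libraries. In H929 the share was 84.8 and 87.5% in ethanol libraries and 61.1 and 87.5% in fluvastatin libraries, which differed widely from each other. Of the other genes that set fructose 2,6-bisphosphate, PFKFB2 rose in H929 (0.43, SE 0.12, edgeR adjusted p = 0.0158), and PFKFB1 and TIGAR did not pass in either line. The PFKFB2 call was lost without H929 ethanol replicate 1, H929 fluvastatin replicate 2 or either KMS11 ethanol library (highest adjusted p = 0.118).

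BNIP3 (ENSG00000176171.11, chromosome 10, 131967684 to 131981967, minus strand) encodes a receptor in the outer mitochondrial membrane that marks mitochondria for autophagy under hypoxia. It was at 51.8 and 56.0 CPM in ethanol and 47.6 and 49.1 CPM in fluvastatin in H929, and at 42.2 and 39.5 against 34.2 and 37.4 CPM in KMS11. The treated libraries were the lower ones in both lines without overlap, but the log2 fold changes of -0.16 (SE 0.10, edgeR adjusted p = 0.248) and -0.19 (SE 0.10, edgeR adjusted p = 0.306) did not pass. BNIP3 has 44 annotated pseudogenes with counts of 0.917 to 2.22% of its own.

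Of 8 mitophagy genes, BNIP3 among them, 5 rose and 1 fell in H929, where 22.7% of all tested genes were higher and 19.3% lower, and 2 rose in KMS11, where 2.58% were higher. OPTN, an autophagy receptor for ubiquitin-tagged mitochondria, went from 30.4 and 26.7 to 131 and 138 CPM in H929 (log2 fold change 2.24, SE 0.10, edgeR adjusted p = 1.58e-06) and from 89.7 and 85.3 to 124 and 127 CPM in KMS11 (0.52, SE 0.09, edgeR adjusted p = 0.0173). The kinase PINK1, which starts ubiquitin-dependent mitophagy, went from 13.4 and 12.6 to 34.7 and 32.4 CPM in H929 (1.37, SE 0.17, edgeR adjusted p = 1.85e-04). SQSTM1, a general autophagy receptor, rose in KMS11 from 142 and 146 to 304 and 247 CPM (0.94, SE 0.13, edgeR adjusted p = 0.00419) and by 0.42 in H929. SQSTM1 had 0.55 in KMS11 with the GC trend removed. BNIP3L, the closest relative of BNIP3, rose in H929 from 76.8 and 81.1 to 121 and 144 CPM (0.75, SE 0.10, edgeR adjusted p = 3.84e-04). In KMS11, OPTN and SQSTM1 lost their calls without either ethanol library (highest adjusted p = 0.286 and 0.0782). The count of 5 was 3 without H929 fluvastatin replicate 1. In H929, SQSTM1 lost its call without H929 ethanol replicate 2, H929 fluvastatin replicate 1 or either KMS11 ethanol library (highest adjusted p = 0.169). PINK1, OPTN and SQSTM1 also passed across both lines, at 0.99, 1.37 and 0.68, with PINK1 and OPTN lost without any 1 H929 library and SQSTM1 without H929 ethanol replicate 2, H929 fluvastatin replicate 1 or KMS11 ethanol replicate 2.

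EGLN3 (ENSG00000129521.13, chromosome 14, 33924227 to 34462774, minus strand) encodes an oxygen-sensing prolyl hydroxylase that HIF itself induces, and it was the lowest of the 10 genes. It had 10 to 25 counts and 0.339 to 0.722 CPM in a library, with no separation of treated from ethanol libraries in either line. The log2 fold changes were 0.08 in H929 (SE 0.53, edgeR adjusted p = 0.929) and -0.09 in KMS11 (SE 0.48, edgeR adjusted p = 0.939). Even changes larger than these errors could go undetected at this depth. Its annotated span overlaps SPTSSA on the same strand, which had 1304 to 2162 counts.

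Of the 13 tested genes of HIF and oxygen sensing, 1 was higher and 1 lower in H929, where 42.0% of all tested genes were called. None was called in KMS11, where 3.12% of all tested genes were called. There 3 of the 13 had an unadjusted p under 0.05 in edgeR and DESeq2 called 0, beside 926 of 11092 genes. HIF1A, the main alpha subunit, was at 132 and 146 against 117 and 131 CPM in H929 and at 148 and 153 against 127 and 142 CPM in KMS11, with log2 fold changes of -0.16 in both lines (SE 0.10 in each, edgeR adjusted p = 0.237 and 0.366). The treated libraries of HIF1A were the lower ones in both lines without overlap, and the change passed the test in neither. ARNT, the partner of the alpha subunits, rose in H929 from 243 and 222 to 397 and 384 CPM (0.75, SE 0.09, edgeR adjusted p = 1.42e-04) and was at 107 to 117 CPM in every KMS11 library. Its paralog ARNT2 fell in H929 from 11.8 and 10.3 to 4.83 and 4.23 CPM (-1.29, SE 0.20, edgeR adjusted p = 6.42e-04). ARNT2 also passed across both lines (-0.90, SE 0.22, edgeR adjusted p = 0.037), a call lost without any 1 H929 library or KMS11 ethanol replicate 2 (highest adjusted p = 0.148). EGLN1, VHL and HIF1AN, which restrain HIF, did not pass in either line.

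Other HIF targets moved in both directions in H929. Of 30 genes, 25 were tested, and 10 rose and 5 fell in H929. There 22.7% of all tested genes were higher and 19.3% lower, so that the lower share was near the background. In KMS11, P4HA2 and TFRC rose and HMOX1 fell, beside 2.58% and 0.533% of all tested genes. CA9 and CA12, carbonic anhydrases that are hallmarks of hypoxia, had 0 counts in all 8 libraries. The median log2 fold change of the 25 genes was 0.28 in H929 and 0.07 in KMS11. DDIT4, which restrains mTORC1, went from 84.6 and 61.0 to 257 and 193 CPM in H929 (1.63, SE 0.17, edgeR adjusted p = 6.7e-05), and was at 14.1 and 14.1 against 19.3 and 18.1 CPM in KMS11. BHLHE40, a transcriptional repressor, went from 24.6 and 20.5 to 64.1 and 55.5 CPM in H929 (1.41, SE 0.14, edgeR adjusted p = 5.74e-05). P4HA1, a collagen prolyl hydroxylase, went from 97.1 and 99.4 to 207 and 219 CPM in H929 (1.11, SE 0.10, edgeR adjusted p = 3.86e-05) and was at 19.5 to 25.0 CPM in KMS11. These 3 genes thus rose in H929 while ADM, SLC2A1, PGK1 and PFKFB3 fell there.

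The 5 targets that fell in H929 were PDK1, ERO1A, FAM162A, AK4 and HILPDA, with log2 fold changes from -0.40 for ERO1A to -0.78 for HILPDA. The count of 5 was 2 without H929 ethanol replicate 2 or H929 fluvastatin replicate 1. In KMS11, HMOX1, which degrades heme, fell from 31.3 and 34.6 to 20.1 and 14.98 CPM (-0.91, SE 0.17, edgeR adjusted p = 0.0181), TFRC, the transferrin receptor, rose from 938 and 876 to 1280 and 1500 CPM (0.62, SE 0.14, edgeR adjusted p = 0.0441), and P4HA2 had 0.56 (SE 0.13, edgeR adjusted p = 0.0491). All 3 calls were lost without either KMS11 ethanol library (highest adjusted p = 0.169 for HMOX1, 0.36 for TFRC and 0.37 for P4HA2), TFRC also without KMS11 fluvastatin replicate 2, and P4HA2 also without any 1 H929 library or KMS11 fluvastatin replicate 1. Across both lines 5 of the 25 tested targets rose and FAM162A fell (-0.54, SE 0.11, edgeR adjusted p = 0.0244). Among all tested genes 6.5% were higher and 3.93% lower there, so that the lower share was near the background. DDIT4 had 1.04 (edgeR adjusted p = 0.0358) and BHLHE40 0.93 (edgeR adjusted p = 0.027). None of DDIT4, BHLHE40 and FAM162A passed across both lines when any 1 H929 library was left out (highest adjusted p = 0.113), and the count of 5 was 0 without H929 ethanol replicate 1, H929 fluvastatin replicate 1 or 2, 1 without H929 ethanol replicate 2 and 2 without KMS11 ethanol replicate 2.

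**Figure D5:**
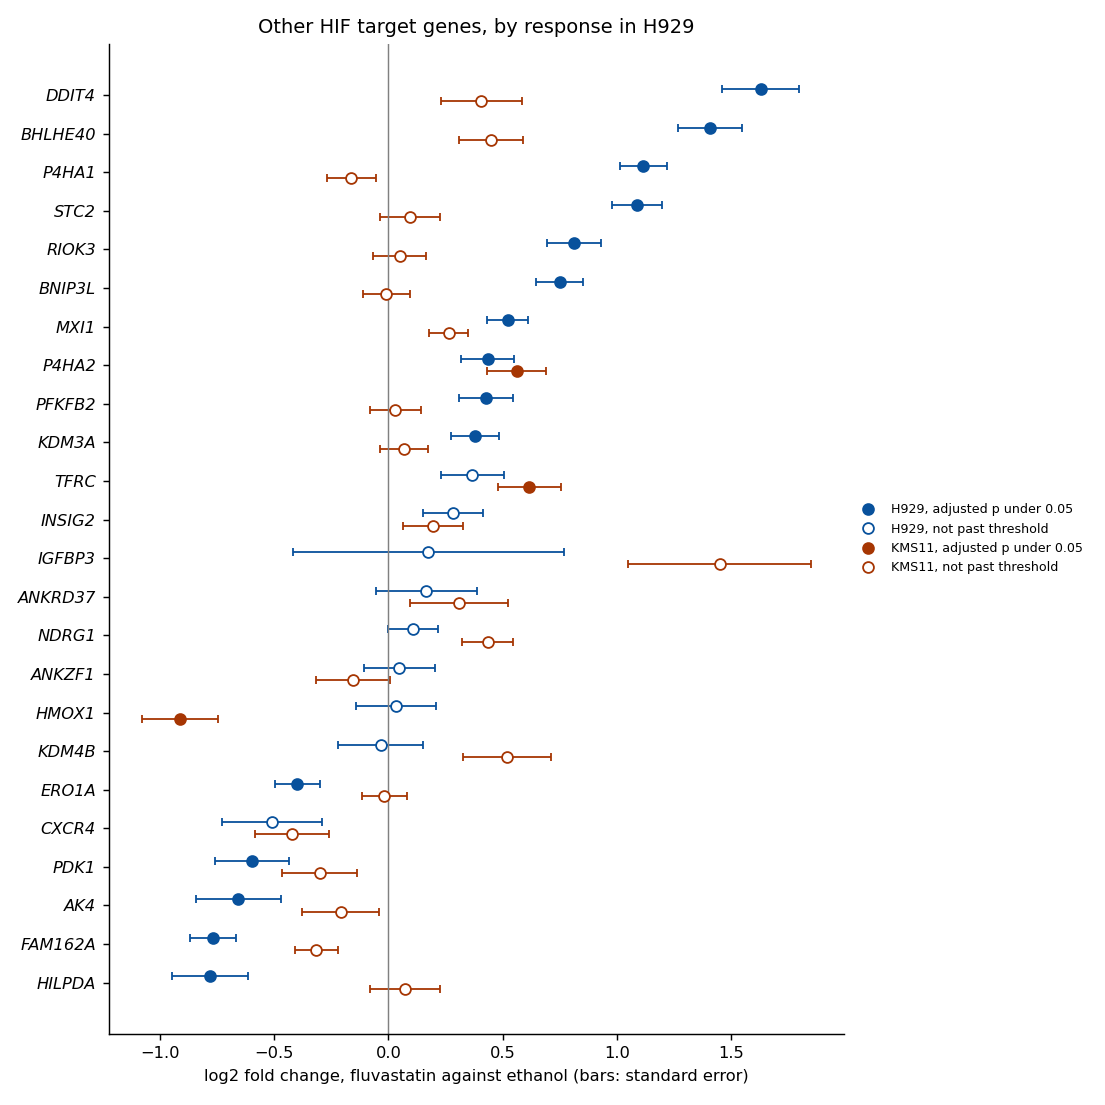
Log2 fold change with fluvastatin (horizontal axis) of 24 other HIF target genes, ordered by their value in H929 (blue) and shown with KMS11 (brown), with bars for the standard error and filled points for an adjusted p under 0.05. H929 values run from 1.63 for DDIT4 to -0.78 for HILPDA. SLC2A3 is left out because it had 0 counts in H929 ethanol libraries.

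Downstream of glycolysis, 4 of the 12 tested genes for the entry of pyruvate into mitochondria were lower and 2 higher in H929. This was near the 42.0% of all tested genes called there. None of the 12 passed in KMS11, where 3.12% of all tested genes were called. There 2 had an unadjusted p under 0.05 in edgeR and DESeq2 called 0, beside 926 of 11092 genes. PDP1, a phosphatase that switches pyruvate dehydrogenase on, rose in H929 from 46.2 and 48.8 to 96.4 and 108 CPM (log2 fold change 1.11, SE 0.10, edgeR adjusted p = 3.11e-05). DLAT, a core subunit of pyruvate dehydrogenase, fell in H929 (-0.64, SE 0.11, edgeR adjusted p = 0.00134). PDK1, the HIF-induced kinase that switches the complex off, fell from 403 and 487 to 271 and 317 CPM (-0.60, SE 0.16, edgeR adjusted p = 0.0138), a call lost without H929 ethanol replicate 2 or H929 fluvastatin replicate 1 (highest adjusted p = 0.0926). The lower count was 1 without either of these libraries. The higher count was 1 without any 1 H929 library or either KMS11 ethanol library. PDP1 had 0.71 across both lines (SE 0.16, edgeR adjusted p = 0.0306), lost without any 1 H929 library or KMS11 ethanol replicate 2 (highest adjusted p = 0.122).

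Of 7 enzymes of the pentose phosphate pathway, which branches from glucose 6-phosphate, 5 fell in H929, where 19.3% of all tested genes were lower, and PGD rose in KMS11, where 2.58% were higher. TKT, a transketolase, went from 228 and 196 to 139 and 110 CPM in H929 (log2 fold change -0.77, SE 0.18, edgeR adjusted p = 0.00663), TALDO1, the transaldolase, had -0.51 (SE 0.10, edgeR adjusted p = 0.00207), and RPIA, a ribose isomerase, had -0.50 (SE 0.11, edgeR adjusted p = 0.00643). TKT lost its call without H929 fluvastatin replicate 2 (adjusted p = 0.0505). PGD, the dehydrogenase of 6-phosphogluconate, moved in opposite directions, from 120 and 117 to 89.5 and 90.6 CPM in H929 (-0.39, SE 0.08, edgeR adjusted p = 0.0043) and from 141 and 141 to 190 and 177 CPM in KMS11 (0.38, SE 0.08, edgeR adjusted p = 0.0405). The KMS11 call of PGD was lost without any 1 library other than KMS11 fluvastatin replicate 2 (highest adjusted p = 0.355). Across both lines RPIA passed at -0.39 (edgeR adjusted p = 0.0345), and 6 of the 8 fits that left out 1 library lost it (highest adjusted p = 0.136).

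Among 6 tested regulators of glucose use, MYC and TXNIP rose and MLX fell in H929, where 42.0% of all tested genes were called. None of the 6 passed in KMS11 by edgeR, where 3.12% of all tested genes were called. In KMS11, 2 of them had an unadjusted p under 0.05 and DESeq2 called 1, beside 926 of 11092 genes. TXNIP, which blocks glucose uptake and responds to glucose, went from 164 and 143 to 483 and 446 CPM in H929 (log2 fold change 1.60, SE 0.12, edgeR adjusted p = 1.07e-05), and was at 82.7 and 98.9 against 87.8 and 93.3 CPM in KMS11. MYC, which drives many glycolytic genes, went from 155 and 137 to 188 and 194 CPM in H929 (0.39, SE 0.10, edgeR adjusted p = 0.0138) and from 351 and 393 to 291 and 257 CPM in KMS11 (-0.44, SE 0.10, edgeR adjusted p = 0.0539). The H929 call of MYC was lost without H929 ethanol replicate 2 or H929 fluvastatin replicate 2 (highest adjusted p = 0.108). MLX, a partner of glucose-sensing factors, fell in H929 (-0.34, SE 0.09, edgeR adjusted p = 0.0101), lost without H929 ethanol replicate 1 or H929 fluvastatin replicate 1 (highest adjusted p = 0.0716).

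Per length, LDHA and PGK1 stood far above the other genes in every group. In H929 ethanol libraries LDHA was at 405 and 486 TPM and PGK1 at 287 and 268 TPM, followed by VEGFA, HK2 and BNIP3 at 9.02 to 11.7 TPM with overlapping ranges. ADM (6.90 and 4.73 TPM) and SLC2A1 (5.15 and 5.55 TPM) overlapped next, and below them stood PFKFB3 (3.68 and 3.28 TPM), PFKFB4 (0.660 and 0.470 TPM) and EGLN3 (0.0800 and 0.160 TPM). In KMS11 ethanol libraries PGK1 (557 and 632 TPM) and LDHA (601 and 571 TPM) could not be ordered. HK2 and BNIP3 followed at 9.65 to 11.1 TPM, then SLC2A1 at 8.18 and 8.36 TPM, VEGFA and PFKFB3 at 4.25 to 4.91 TPM, ADM at 2.42 and 2.48 TPM, PFKFB4 at 0.340 and 0.540 TPM and EGLN3 at 0.120 and 0.320 TPM. With fluvastatin ADM dropped to 1.12 and 0.790 TPM in H929, where it overlapped PFKFB4, and to 0.990 TPM in both KMS11 libraries, where it lay below PFKFB4. Protein-coding genes held 32.2 to 46.8% of all TPM in a library, and the small structural RNA gene RN7SL1 alone held 11.0 to 17.9%.

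In ethanol, 5 of the 10 genes were lower in KMS11 than in H929 and 1 was higher, where 72.0% of all tested genes differed (36.4% lower and 35.6% higher). VEGFA was 2.93-fold lower in KMS11 (log2 difference -1.55, SE 0.13, edgeR adjusted p = 2.63e-06), PFKFB4 2.74-fold lower (-1.46, SE 0.33, edgeR adjusted p = 0.00264) and ADM 2.65-fold lower (-1.40, SE 0.21, edgeR adjusted p = 1.92e-04). PGK1 was 1.46-fold higher (0.55, SE 0.09, edgeR adjusted p = 2.86e-04). HK2 (-0.36, SE 0.09, edgeR adjusted p = 0.00598) and BNIP3 (-0.40, SE 0.10, edgeR adjusted p = 0.00527) were lower in counts, but with limma on log2(TPM + 1) the differences were 0.16 and 0.11 and did not pass, on a scale where the median over all tested genes was 0.31. The HK2 call was lost without KMS11 ethanol replicate 1 (adjusted p = 0.0824) and the BNIP3 call without KMS11 ethanol replicate 2 (adjusted p = 0.0761). PFKFB4 also did not pass on TPM. SLC2A1, LDHA, PFKFB3 and EGLN3 did not pass, with differences of 0.07, -0.09, 0.18 and 0.14. With the GC trend removed the count of 6 was 9, where 9953 of all 13129 tested genes passed, beside 9454 in the main fit. SLC2A1 (0.59, edgeR adjusted p = 3.42e-04), PFKFB3 (0.82, 2.61e-05) and LDHA (-0.41, 0.00214) passed there. SLC2A1 also passed with limma on log2(TPM + 1), at 0.55 (limma adjusted p = 0.00276). LDHA passed in the opposite direction with limma on log2(TPM + 0.1), at 0.40 (limma adjusted p = 0.0477). On that scale the median over all tested genes was 0.46.

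ADM fell the most of the 10 genes, and the genes with the most similar profile were sought among 10585 genes by the root mean square difference of log2 CPM, centred within each line, over the 8 libraries. The nearest were ABCG1 (0.16), ABCA1 (0.21), SLFN11 (0.28), STRIP2 (0.28) and IL17RB (0.29). ABCG1 and ABCA1 encode pumps that export cholesterol and are textbook targets of the sterol-sensing liver X receptors. Log2 fold changes in H929 were -2.31 for ABCG1, -2.46 for ABCA1, -2.02 for SLFN11, -1.94 for STRIP2 and -1.95 for IL17RB, beside -2.24 for ADM. In KMS11 they were -0.64, -1.04, -0.45, -0.49 and -0.36 in the same order, beside -1.01 for ADM. There ABCG1, ABCA1 and SLFN11 passed the test, and STRIP2 (edgeR adjusted p = 0.135) and IL17RB (0.354) did not. In H929 the fold change of ABCG1 was nearest to that of ADM, and in KMS11 that of ABCA1. These genes were picked for this likeness.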

How the data were processed

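RNA was sequenced from 8 libraries of H929 and KMS11 cells, 2 for each line and treatment, with rRNA removed before stranded library preparation. The authors aligned reads to GRCh38 with STAR 2.5.2b and counted them with RSEM 1.3.0, per the labels and the study's methods. The deposited tables hold RSEM expected counts without normalization, and TPM values, which the authors' run of RSEM scaled by effective length within each library. The deposited FPKM values, which the authors also took from RSEM, were not used here. The strand setting of the counting is not given in the sources used here.

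Expected counts were rounded to whole numbers. Protein-coding genes of GENCODE v44 (57392 of 58219 identifiers matched) were kept where edgeR's filter passed them (minimum count 10, minimum total 15), and 13129 genes were scaled by TMM and tested with edgeR 4.0.16 (quasi-likelihood F test, Benjamini-Hochberg threshold 0.05) in R 4.3.3. Treatment across both lines was fitted with the line as a term. The responses within each line, their difference and the comparison of the lines in ethanol came from a fit of 4 group means, in which all 8 libraries share 1 estimate of the spread. Standard errors were derived from the fold change and its F statistic. The tests were tested on simulated data first. Totals of 26702515 to 41910446 counts and 2 replicates a group limit the precision. In the fit of 4 group means, p-values measure the spread between these replicates only. Across both lines the spread also holds the difference of response between the lines. The common dispersion, edgeR's estimate of the spread, was 0.0316 in that fit and 0.0125 in the fit of 4 group means.

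Alternatives used DESeq2 1.42.0, limma 3.58.1 on log2(TPM + 1) and log2(TPM + 0.1), other size factors, filters of 50 counts and none, all annotated genes, a replicate block, no line term, offsets for GC content and length, a threshold of 0.01, and each library left out. The members and gene lists were chosen with earlier results of these data known. All 10 members were named, with HIF1A, MYC and TXNIP, the 5 genes nearest to ADM among genes whose mean log2 CPM reached 1, and for each other list and treatment comparison the 3 called genes of largest change. Other list genes were named after their values were seen, and the list counts under the alternatives were added after seeing the data. Identifiers, coordinates and overlaps are those of GENCODE v44 on GRCh38, and promoters are from RefSeq. One result within the mitophagy list is not reported here.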

Additional observations from a re-analysis of the deposited data

Results flagged for a closer look

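Each result here is a response to fluvastatin that differed between the lines by edgeR's test of the difference itself, KMS11 minus H929 on the log2 scale, with an adjusted p under 0.05. Among the 10 genes these were ADM, at 1.23 (edgeR adjusted p = 0.0221), where both lines fell and H929 fell further, and PFKFB4, at 2.64 (edgeR adjusted p = 0.00362), where KMS11 alone passed the test.

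Among glycolytic enzymes the difference was 0.60 for PFKM, 1.49 for ALDOA, 1.05 for GPI, 0.93 for PGAM1 and 1.25 for ALDOC. For the branch into the pentose phosphate pathway it was 0.9998 for TKT, 0.71 for TALDO1 and 0.78 for PGD. For the sugar transporter SLC2A8 it was 0.95, and 0.31 (edgeR adjusted p = 0.187) with the GC trend removed. Among genes of pyruvate entry it was -0.80 for PDP1 and 0.54 for DLAT.

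Among regulators and targets of HIF the difference was -0.67 for ARNT, -1.22 for DDIT4, -0.96 for BHLHE40, 0.45 for FAM162A, -1.28 for P4HA1 and -0.95 for HMOX1. It was -2.71 for CALCRL, -1.71 for OPTN and -0.78 for PINK1 among genes of adrenomedullin signalling and mitophagy. It was -1.60 for TXNIP and -0.83 for MYC, which was called higher in H929 and had a value of the opposite sign in KMS11 that did not pass.

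The calls for PFKM, SLC2A8, FAM162A, HMOX1, PINK1, DLAT and TKT were lost when 1 library or another was left out, with highest adjusted p from 0.0646 for PFKM to 0.152 for FAM162A. Without H929 ethanol replicate 1 the call for ADM was lost as well (edgeR adjusted p = 0.0832).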

How the results depend on the processing

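In H929, 4 of the 10 genes passed, and 3 to 4 when each library was left out. ADM and PFKFB3 passed in H929 under all 21 alternatives. Of 1034 values of the 10 genes under alternatives, 898 kept their direction and side of the threshold, 36 lost the call, 53 gained one and 47 changed sign.

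The count of the 10 genes that passed across both lines was 1. It was 5 with DESeq2, where 2538 of all 13129 tested genes passed, beside 1370 in the main fit. Numbers in brackets below are such counts over all tested genes. The count was 0 with the replicate block (158), 0 with no line term (4) and 2 with limma on log2(TPM + 0.1) (1316). It was 4 with the GC offset (3094) and 5 with the GC and length offset (3025). The replicate block and GC offset gave 3 (396), and a threshold of 0.01 gave 0 (161). In KMS11 the main fit called 409 of all tested genes. There the count of 3 was 1 with limma on log2(TPM + 1) (223) and 1 on log2(TPM + 0.1) (158). It was 5 with the GC offset (1590) and 6 with the GC and length offset (1618). The replicate block and GC offset gave 7 (3253), and a threshold of 0.01 gave 1 (129). For the difference the main fit called 3048 of all tested genes, and the count of 2 was 4 with the replicate block (4227). Limma gave 1 on log2(TPM + 1) (2035) and 1 on log2(TPM + 0.1) (1969). The GC offset gave 4 (4463), the GC and length offset 4 (4511) and the replicate block and GC offset 4 (5609). At 0.01 the count was 1 (1258). These counts also moved when 1 library was left out. The cause was not tested.

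Replicate numbers were not treated as pairs in the main fits. Deviations of same-numbered libraries from their group means correlated at 0.57 in H929 and -0.00 in KMS11. Between the lines they correlated at 0.60 in fluvastatin and -0.01 in ethanol. The 2 deviations of a group mirror each other, so the 2 pairs behind each value are not independent. These values do not decide whether the replicates were paired. With the replicate block ADM across both lines lost its call (edgeR adjusted p = 0.0718) and VEGFA in KMS11 gained one (edgeR adjusted p = 0.018).

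Signs changed only for values that the main edgeR test did not call, HK2 and BNIP3 in ethanol excepted. Across both lines EGLN3 was 0.0089 with library size only, 0.0105 with no line term, 0.11 and 0.40 with limma, and -0.26 to 0.18 with 1 library left out. In H929, PFKFB4 was 0.062 and 0.048 with limma, EGLN3 was -0.0017 with the GC offset and -0.00082 with the replicate block and GC offset, and with 1 library left out HK2 ran from -0.14 to 0.024, LDHA from -0.27 to 0.10 and EGLN3 from -0.31 to 0.40. In KMS11, EGLN3 ran from -0.70 to 0.35. For the difference, SLC2A1 was -0.0498 with the GC offset, -0.0316 with the GC and length offset and -0.0491 with the replicate block and GC offset. LDHA was 0.0106 over all annotated genes, 0.15 with the GC offset, 0.11 with the GC and length offset and 0.15 with the replicate block and GC offset. With 1 library left out, the difference ran from -0.20 to 0.18 for LDHA, -0.11 to 0.0498 for BNIP3 and -0.75 to 0.30 for EGLN3. In ethanol limma gave 0.16 and 0.17 for HK2, 0.40 and 0.40 for LDHA, and 0.11 and 0.11 for BNIP3. LDHA passed as higher in KMS11 on log2(TPM + 0.1) (limma adjusted p = 0.0477) and as lower with the GC offset (-0.41, edgeR adjusted p = 0.00214). EGLN3 was -0.0851 with the GC offset and -0.0096 with the GC and length offset, and with 1 library left out LDHA ran from -0.22 to 0.067 and EGLN3 from -0.24 to 0.46.

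Of the genes in the other lists that were called, 33 of 53 in H929, 0 of 8 in KMS11, 1 of 15 across both lines and 22 of 38 for the difference passed whichever library was left out. At 10 to 25 counts, EGLN3 is limited by depth.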
